A study of Mus musculus with 22 samples.

Results

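The 10 genes described here encode proteins that detect foreign or misplaced nucleic acid, relay that signal, or keep the cell's own nucleic acid from setting it off: Ddx58, Ifih1, Dhx58, Mavs, Tlr3, Zbp1, Eif2ak2, Adar, Trex1 and Tbk1. Members were chosen by exact match of the gene symbol. All 10 had a row among the 34866 genes of the culture tables, and 9 had a row among the 23911 genes of the main cartilage table, where Trex1 had none. The study removed Dnmt1, the maintenance DNA methyltransferase, from limb skeletal cells of mice and sequenced RNA from 22 samples of chondrocytes and cartilage. Primary chondrocytes from knee articular cartilage of newborn mice were sampled untreated (day 0) in 3 control samples with the genotype Dnmt1 flox and 3 conditional knockout samples (cKO) with the genotype Prrx1-Cre;Dnmt1 flox/flox. They were sampled again after 3 days with BMP2, a growth factor that drives chondrocyte differentiation, at a labelled dose of 100 ng/µl, in 4 control and 4 cKO samples. Cartilage taken from mice at postnatal day 5 and treated with collagenase gave 4 samples labelled flox, the controls, and 4 labelled cKO, each with 2 males and 2 females. Prrx1-Cre is active in early limb mesenchyme, so cartilage is not the only tissue in which the gene is removed. The labels call the cultures biological replicates but do not tie any sample to an animal, so the p-values measure the spread between these samples.

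RIG-I (encoded by Ddx58) and MDA5 (Ifih1) are helicases that bind double-stranded RNA in the cytosol, and LGP2 (Dhx58) modulates both. RIG-I and MDA5 act through the mitochondrial adaptor MAVS and the kinase TBK1 to switch on type I interferon genes. TLR3 reads double-stranded RNA in endosomes, ZBP1 binds Z-form nucleic acid and can start necroptosis, and PKR (Eif2ak2) halts translation when it meets double-stranded RNA. ADAR edits adenosine to inosine in double-stranded RNA and TREX1 degrades cytosolic DNA, which hides or removes the cell's own nucleic acid. Many of these genes are themselves induced by interferon, through the interferon-stimulated response element, whose core is GAAANNGAAA.

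Promoters were read from RefSeq (assembly GRCm38.p6), as 300 bases that start 250 bases before each transcription start. The table held windows for 8 of the 10 genes, and 5 windows are shown because they differ in that response element. Capitals mark GAAANNGAAA, or its shorter form GAAANNGAA in Adar, on either strand; every 10-letter match also holds the 9-letter one.
Ddx58 (chr4:40239776-40240075, minus strand): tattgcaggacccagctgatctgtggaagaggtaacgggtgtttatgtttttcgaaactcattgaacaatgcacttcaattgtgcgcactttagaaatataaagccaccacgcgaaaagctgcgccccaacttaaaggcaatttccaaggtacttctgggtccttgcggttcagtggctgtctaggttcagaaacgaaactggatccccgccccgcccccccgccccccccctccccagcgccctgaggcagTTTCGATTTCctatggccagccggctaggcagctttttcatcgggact
Ifih1 (chr2:62646206-62646505, minus strand): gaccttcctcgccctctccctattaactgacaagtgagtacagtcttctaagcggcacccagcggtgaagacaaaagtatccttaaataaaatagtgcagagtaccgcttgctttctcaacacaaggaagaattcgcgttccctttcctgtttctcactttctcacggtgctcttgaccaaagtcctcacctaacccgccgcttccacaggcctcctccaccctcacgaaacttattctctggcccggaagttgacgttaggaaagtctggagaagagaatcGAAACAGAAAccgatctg
Eif2ak2 (chr17:78882523-78882822, minus strand): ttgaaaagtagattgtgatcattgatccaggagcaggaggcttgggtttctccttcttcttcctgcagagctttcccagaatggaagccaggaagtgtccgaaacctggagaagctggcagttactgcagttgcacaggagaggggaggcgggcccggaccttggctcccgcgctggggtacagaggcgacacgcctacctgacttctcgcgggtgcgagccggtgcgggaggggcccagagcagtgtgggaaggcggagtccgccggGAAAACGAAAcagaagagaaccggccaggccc
Adar (chr3:89730468-89730767, plus strand): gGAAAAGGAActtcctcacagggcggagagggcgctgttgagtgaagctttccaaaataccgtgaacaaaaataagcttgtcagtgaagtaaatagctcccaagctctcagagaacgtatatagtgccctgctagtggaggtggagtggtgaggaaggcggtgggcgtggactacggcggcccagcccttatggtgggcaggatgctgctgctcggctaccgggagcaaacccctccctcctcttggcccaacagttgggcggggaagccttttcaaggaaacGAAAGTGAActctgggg
Mavs (chr2:131233813-131234112, plus strand): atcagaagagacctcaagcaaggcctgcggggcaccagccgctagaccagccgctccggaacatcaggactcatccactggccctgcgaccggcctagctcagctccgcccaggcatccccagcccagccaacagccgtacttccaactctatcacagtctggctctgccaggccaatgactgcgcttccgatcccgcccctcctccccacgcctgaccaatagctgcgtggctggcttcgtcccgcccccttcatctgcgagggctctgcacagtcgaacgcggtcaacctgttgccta
Ddx58, Ifih1 and Eif2ak2 held the 10-letter core, which starts at positions 3, 33 and 19 with the transcription start as position 1, where 3.44% of all 32851 promoter windows hold it. Adar held the 9-letter form, present in 8.56% of windows at 2 places in the third of its 3 annotated promoters, starting at -249 and at 34. Neither form was found in the windows of Mavs, Tlr3, Trex1 and Tbk1. The windows carried 15 CpG dinucleotides in Ddx58, 14 in Ifih1, 17 in Eif2ak2, 12 in this Adar promoter and 19 in Mavs. Over all windows the median was 7 and the quartiles were 3 and 20, so these counts lay within the quartiles. Windows not shown held 10 in Tlr3, 5 and 7 in Trex1, 37 in Tbk1, and 6 and 34 in the other Adar promoters. A match is a run of letters, not a measured binding site, and methylation was not analysed here.

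The culture libraries held 41749327 to 51741478 estimated counts at day 0 and 14434197 to 18918714 at day 3, and the cartilage libraries 1100198 to 1888896 counts. Dnmt1 itself was lower in every cKO library than in any control: 25.7 to 31.3 against 147 to 159 CPM (counts scaled to library size) at day 0, 11.6 to 36.4 against 64.9 to 83.5 CPM at day 3 and 11.8 to 14.3 against 34.5 to 48.6 CPM in cartilage. It was lower by these factors in the 3 settings in turn: 5.44, 2.66 and 3.16. Day 3 cKO replicate 4 stood apart from the other 3 day 3 cKO libraries: its correlation with them across genes was 0.939 to 0.945, against 0.991 to 0.993 among those 3. It held the least Dnmt1 of its group, 1774 CPM of summed chondrocyte markers against 12740 to 18040, and 90.8 CPM of muscle markers against 678 to 1145. All 8 chondrocyte markers were present and summed to 99050 to 148100 CPM in control cultures, and 8 of 8 were lower in the cKO at both culture times, with 2 of 8 lower in cartilage. The 7 muscle markers (6 with a row in cartilage) summed higher in the cKO without overlap, to 54.3 to 60.7 against 7.41 to 8.54 CPM at day 0, 90.8 to 1145 against 0.676 to 1.49 CPM at day 3 and 56.2 to 87.3 against 12.4 to 15.8 CPM in cartilage. In each genotype of cartilage only 2 of the 6 had more than 3 counts in any library, and 2 of 2 tested were called higher. Myog and Myf5 were at 0 in every cKO cartilage library. The 13 immune markers also summed higher in cKO cultures without overlap, to 9.74 to 12.9 against 8.05 to 8.68 CPM at day 0 and 11.5 to 29.8 against 6.53 to 10.8 CPM at day 3, where the 29.8 CPM were in replicate 4 and the next library held 13.7. Of these markers 3 of 6 tested were higher at day 0 (Ptprc, Cd68 and Csf1r) and 2 of 4 at day 3 (Cd68 and Csf1r). S100a9 was at 0 in every control culture, and also in every day 3 cKO culture and every cKO cartilage library. In cartilage the immune sums overlapped between genotypes (31.9 to 93.6 CPM in the cKO, 42.0 to 97.8 in controls) with 0 of 2 called. Osteoclast markers summed lower in the cKO at day 0 (72.8 to 87.0 against 158.4 to 163.2 CPM), overlapped at day 3 with 377 CPM in cKO replicate 4, and were lower in cKO cartilage (57.9 to 118.6 against 123.8 to 452 CPM). At day 0, 1 of the 4 osteoclast markers tested was called higher and 1 lower, so that sum does not stand for each marker. At day 3, 1 of 2 was higher, and in cartilage 3 of 3 were lower. Endothelial markers were low in the cultures and higher in the cKO without overlap, at 3.13 to 3.67 against 1.09 to 1.32 CPM at day 0 and 1.41 to 1.72 against 0.310 to 1.12 CPM at day 3, and overlapped in cartilage. Blood markers had a lower median in cKO cartilage (74.7 against 423 CPM). The part of these cell type differences in the results below was not tested, and in bulk RNA fewer cells of a type and less RNA per cell cannot be told apart. All 4 control cartilage libraries were in 1 sequencing pool and all 4 cKO libraries in the other, so pool and genotype cannot be told apart there.

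Most of the sensors that could be tested had more RNA in the cKO at both culture times, with Mavs, Dhx58 and Adar as the day 0 exceptions. At day 0, 6 of the 9 members tested were higher in the cKO and 3 lower (edgeR quasi-likelihood test, adjusted p under 0.05). The background was high: 64.5% of the 15530 genes tested were called there, 33% higher and 31.6% lower. At day 3, 8 of 9 were higher and none lower, against 48.1% of 13924 genes called and 25.5% called higher. In cartilage 4 members had enough counts to be tested: Ddx58, Ifih1 and Eif2ak2 were called higher and Tbk1 was not called, against 6.19% of 8793 genes called and 3.15% called higher. Ifih1 passed the count filter there only through the cKO libraries, since its controls held 3 to 6 counts, so the share called among these 4 is no measure of the 10. The median log2 fold change of the tested members was 0.51 at day 0 and 1.17 at day 3, where the median of all tested genes was 0.0096 and 0.011. Ddx58, Ifih1 and Eif2ak2 were called higher in all 3 settings. In 1 fit of all 14 cultures, which share 1 estimate of spread, the day 0 calls were 4, all higher (Ifih1, Tlr3, Eif2ak2 and Tbk1), and adjusted p was 0.0502 for Ddx58, 0.0726 for Trex1, 0.0833 for Dhx58, 0.306 for Mavs and 0.447 for Adar.

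**Figure D1:**
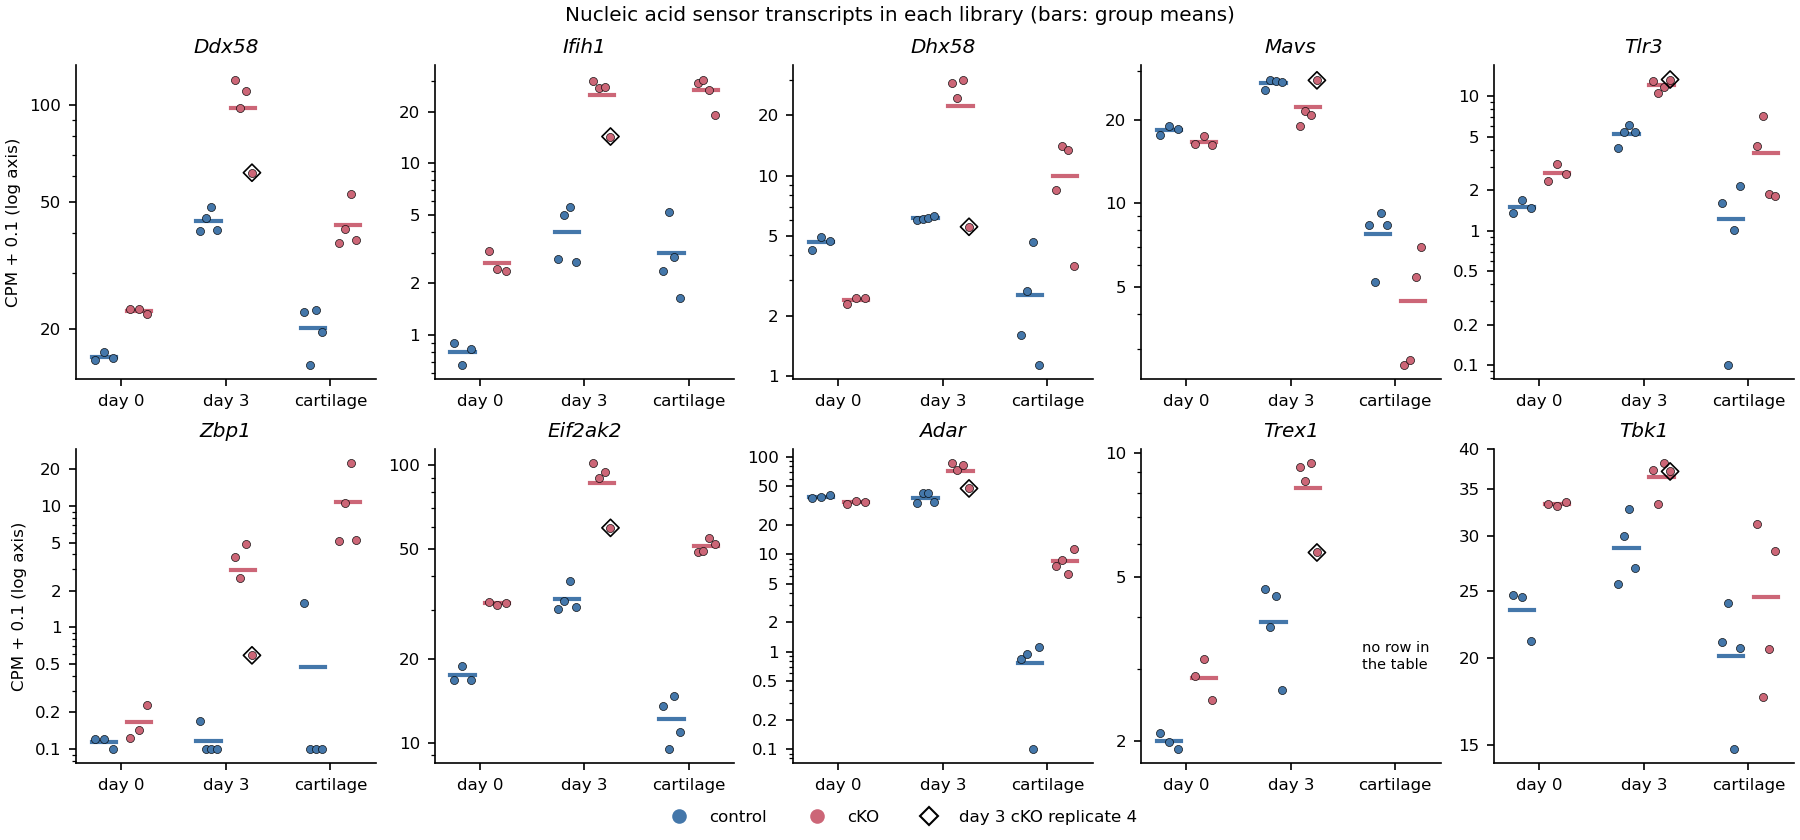
CPM plus 0.1 of each sensor in every library on a log axis, with each setting scaled on its own; points are libraries, horizontal bars group means, blue control and red cKO, and the open diamond marks day 3 cKO replicate 4. In Ddx58, Ifih1 and Eif2ak2 every cKO library lies above every control library of the same setting, while Dhx58 lies below its controls at day 0 and above them in 3 of 4 libraries at day 3.

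**Figure D2:**
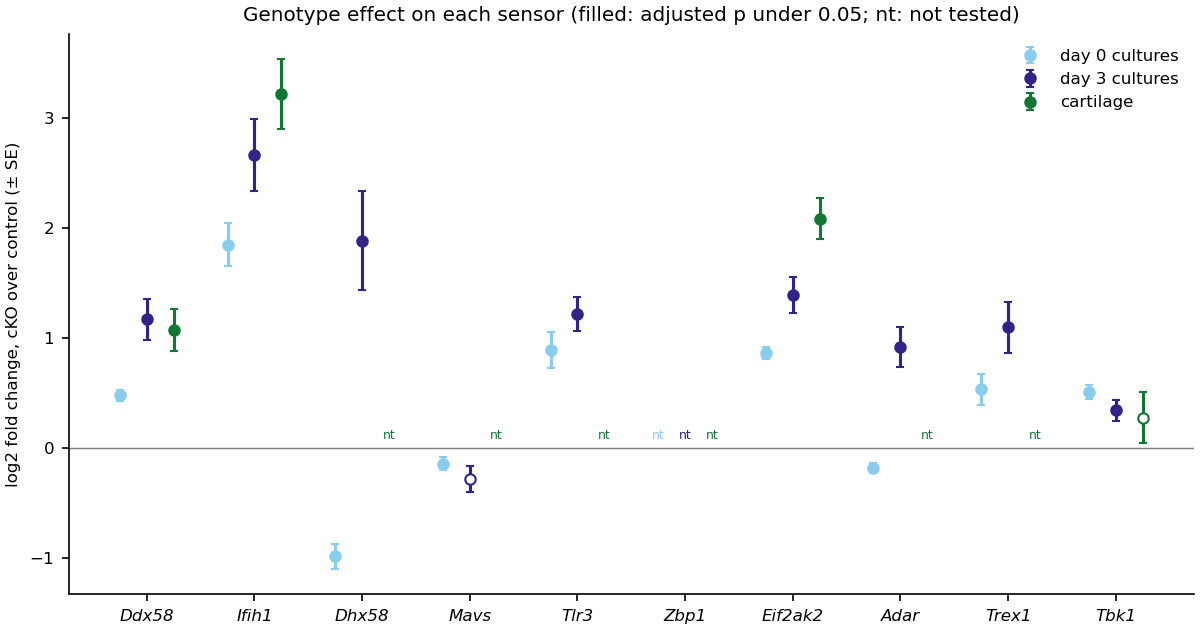
Log2 fold change of cKO over control with its standard error, for each sensor and setting; filled points passed an adjusted p of 0.05, open points did not, and nt marks a gene with too few counts to be tested (or, for Trex1 in cartilage, no row). Ifih1 has the largest tested value in each setting, 1.85, 2.66 and 3.21, and Mavs is the member below 0 at both culture times. The cartilage test of Ifih1 was possible only through the cKO libraries.

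Ifih1 (MDA5; chromosome 2, 62595798 to 62646255, GRCm38, minus strand) was among the weakest sensors of control cells and had the largest tested genotype difference. At day 0 it stood at 0.797, 0.568 and 0.731 CPM in the controls and 2.97, 2.33 and 2.26 CPM in the cKO. At day 3 the controls held 2.67, 4.90, 5.45 and 2.57 CPM and the cKO 29.9, 27.4, 27.8 and 14.2 CPM. The lowest cKO library, replicate 4 at day 3, still held more than the highest control. In cartilage its counts were 3, 6, 3 and 3 in the controls and 35, 35, 30 and 22 in the cKO, or 2.25, 5.12, 2.75 and 1.54 against 29.4, 30.6, 26.8 and 18.9 CPM. The groups did not overlap in any setting, as was true of 70.3% of tested genes at day 0, 47.9% at day 3 and 13.5% in cartilage. The log2 fold change was 1.85 ± 0.19 (SE), adjusted p = 3.10e-05 at day 0. It was 2.66 ± 0.32 (SE), adjusted p = 3.06e-04 at day 3, and 3.21 ± 0.32 (SE), adjusted p = 7.37e-06 in cartilage, where 4 of 4 cKO libraries lay above all controls. Ifih1 could be tested in cartilage only because the cKO was high, so that call was partly fixed by the count filter.

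Ddx58 (RIG-I; chromosome 4, 40203773 to 40239828, minus strand) was more abundant than Ifih1 in the cultures, also per kilobase of exon, and had the smaller genotype difference in each setting. At day 0 the controls held 16.0, 16.9 and 16.2 CPM and the cKO 23.1, 23.0 and 22.3 CPM, a log2 fold change of 0.48 ± 0.048 (SE), adjusted p = 2.27e-05. At day 3 the values were 40.5, 44.3, 48.0 and 40.6 CPM in the controls and 120.0, 97.8, 111 and 61.4 CPM in the cKO, a log2 fold change of 1.17 ± 0.19 (SE), adjusted p = 0.00127. Replicate 4 was the lowest of the cKO group and again above every control. In cartilage the controls held 22.5, 15.4, 22.9 and 19.6 CPM and the cKO 36.9, 41.1, 52.6 and 37.9 CPM, a log2 fold change of 1.07 ± 0.19 (SE), adjusted p = 0.00245. That cartilage difference was smaller in the second deposited cartilage table, which holds estimated counts: 0.51 ± 0.15 (SE), adjusted p = 0.0599, no longer past the threshold, with 51.6, 51.5, 60.2 and 41.1 CPM in the controls and 65.2, 72.2, 84.3 and 68.5 CPM in the cKO.

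Dhx58 (LGP2; chromosome 11, 100694884 to 100704271, minus strand), the RIG-I-like helicase without a signalling domain, went in opposite directions at the 2 culture times. At day 0 it was lower in the cKO, at 2.19, 2.35 and 2.34 CPM against 4.15, 4.85 and 4.63 CPM in the controls, a log2 fold change of -0.98 ± 0.11 (SE), adjusted p = 4.96e-05. At day 3 the controls lay within a narrow band, 5.90, 5.96, 6.07 and 6.15 CPM. The cKO libraries held 29.0, 24.3, 30.1 and 5.45 CPM: 3 were far above every control and replicate 4 was below all of them. The log2 fold change was 1.88 ± 0.45 (SE), adjusted p = 0.00847, and 2.20 (adjusted p = 2.86e-07) without replicate 4, where 55.1% of genes were called. In cartilage the counts were too low for the test: 2, 3, 5 and 2 in the controls and 10, 16, 15 and 4 in the cKO, where the lowest cKO library overlapped the controls (exact permutation test of log2(CPM + 1), 2-sided, p = 0.0571, with 4 against 4 samples). In the table of estimated counts Dhx58 could be tested and was higher in the cKO, by 2.19 ± 0.47 (SE), adjusted p = 0.0127. Its estimated counts were 6, 3, 6 and 3 in the controls and 14, 23, 24 and 10 in the cKO. Dhx58 entered that test only because the cKO was high, so the call was partly fixed by the count filter. An antisense gene, Dhx58os, shares 141 bases (4.31%) of the Dhx58 exons, and it is not stated whether the counting used strand.

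Mavs (chromosome 2, 131234063 to 131248025, plus strand), the adaptor that both helicases need, had no higher call in any setting. At day 0 the controls held 17.6, 18.9 and 18.4 CPM and the cKO 16.3, 17.3 and 16.2 CPM, a log2 fold change of -0.14 ± 0.055 (SE), adjusted p = 0.048, which passed the threshold in 3 of 11 alternative analyses (adjusted p 0.0367 to 0.306). After BMP2 the controls held 25.5, 27.8, 27.4 and 27.2 CPM and the cKO 18.9, 21.4, 20.7 and 27.6 CPM. Replicates 1 to 3 of the cKO were below every control and replicate 4 was at the top of the control range. The log2 fold change was -0.29 ± 0.12 (SE), adjusted p = 0.0764, which missed the threshold, and -0.41 (adjusted p = 0.00158) without replicate 4, and it also passed in the single fit of the 14 cultures, at -0.30 (adjusted p = 0.0119). Cartilage counts were 11, 6, 10 and 16 in the controls and 3, 3, 6 and 8 in the cKO, with overlap (exact permutation test, 2-sided, p = 0.0857).

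Tbk1 (chromosome 10, 121546455 to 121586787, minus strand), the kinase downstream of MAVS and of the DNA sensors, was modestly higher in both culture settings. The day 0 values were 24.6, 24.4 and 21.1 CPM in the controls and 33.2, 33.0 and 33.4 CPM in the cKO, a log2 fold change of 0.51 ± 0.062 (SE), adjusted p = 8.22e-05. The day 3 values were 25.5, 29.9, 32.7 and 26.8 CPM in the controls and 37.2, 33.3, 38.1 and 37.1 CPM in the cKO, 0.34 ± 0.094 (SE), adjusted p = 0.016. The groups did not overlap at either time, but at day 3 the lowest cKO library, replicate 2, was close to the highest control, replicate 3, and without day 3 control replicate 4 the difference missed the threshold (0.30, adjusted p = 0.0527). In cartilage the genotypes overlapped, at 21.0, 23.9, 14.7 and 20.6 CPM in the controls and 31.1, 17.5, 20.5 and 28.4 CPM in the cKO, and the log2 fold change was 0.27 ± 0.23 (SE), adjusted p = 0.518. Tbk1 was counted very differently in the 2 cartilage tables: 28, 28, 16 and 40 whole counts in the 4 controls, against 396, 442, 351 and 670 estimated counts in the same libraries.

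Tlr3 (chromosome 8, 45395665 to 45411080, minus strand), the endosomal receptor, was low at day 0 and higher in the cKO at both times. The day 0 controls held 1.26, 1.58 and 1.37 CPM and the cKO 2.26, 3.02 and 2.56 CPM, a log2 fold change of 0.89 ± 0.16 (SE), adjusted p = 0.00109. The day 3 controls held 4.004, 5.35, 6.01 and 5.34 CPM and the cKO 13.0, 10.4, 11.7 and 13.2 CPM, 1.22 ± 0.15 (SE), adjusted p = 3.39e-04. Replicate 4, the lowest cKO library for both cytosolic helicases Ddx58 and Ifih1, was the highest of the 4 for Tlr3. In cartilage no library had more than 8 counts, 2, 0, 1 and 4 in the controls and 5, 8, 2 and 2 in the cKO, and a difference was not detectable at this depth (exact permutation test, 2-sided, p = 0.114). The antisense gene Gm45542 shares 381 bases (7.32%) of the Tlr3 exons.

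Zbp1 (chromosome 2, 173206612 to 173218923, minus strand), the sensor of Z-form nucleic acid, was at or near 0 in every control library. At day 0 its counts were 1, 1 and 0 in the controls and 1, 2 and 7 in the cKO, mostly at or under a floor of 3 counts per library, and no fold is given. At day 3 the controls held 1, 0, 0 and 0 counts and the cKO 64, 49, 89 and 8. Replicate 4 was the lowest cKO library, and even its 8 counts were above every control. With the controls set to that floor, Zbp1 was at least 15.0-fold higher in the cKO, and at least 19.1-fold higher without replicate 4. In cartilage the counts were 2, 0, 0 and 0 in the controls and 6, 12, 25 and 6 in the cKO, at least 4.72-fold higher. The estimated counts of the second cartilage table gave a bound of 6.52-fold, from 3, 0, 0 and 1 in the controls and 8, 16, 36 and 7 in the cKO. The exact permutation test (2-sided) gave p = 0.0286 at day 3 and the same p in cartilage, the smallest that 4 against 4 samples allow. In all, 7 such tests were made, on members that could not enter the main fit and on Trex1 in the estimated counts. The p-values printed for them are not adjusted. Adjusted over the 7 tests, p was 0.05 for Zbp1 in both settings and for Adar in cartilage, which is not under the threshold. With no filter on low counts, the edgeR test over all genes called Zbp1 higher at day 3 (adjusted p = 5.30e-04) and in cartilage (adjusted p = 1.69e-11), where 30.2% and 4.37% of genes were called.

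Eif2ak2 (PKR; chromosome 17, 78852564 to 78882573, minus strand), the translation-blocking kinase, was higher in the cKO in every setting. At day 0 the controls held 16.7, 18.7 and 16.7 CPM and the cKO 32.0, 31.1 and 31.8 CPM, a log2 fold change of 0.86 ± 0.055 (SE), adjusted p = 1.45e-06. After BMP2 the controls held 30.2, 32.4, 38.0 and 30.8 CPM and the cKO 101, 89.4, 94.0 and 59.3 CPM, 1.39 ± 0.16 (SE), adjusted p = 2.59e-04. Replicate 4 was again the lowest cKO library and above all controls. In cartilage the counts were 18, 11, 16 and 21 in the controls and 58, 56, 61 and 60 in the cKO, 13.5, 9.39, 14.7 and 10.8 against 48.7, 49.0, 54.4 and 51.7 CPM. The log2 fold change there was 2.08 ± 0.19 (SE), adjusted p = 2.87e-06, and 1.72 ± 0.18 (SE), adjusted p = 2.87e-05 in the estimated counts. On the opposite strand the gene n-R5s29 shares 0.919% and Gm26637 shares 3.4% of the Eif2ak2 exons.

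Adar (chromosome 3, 89715022 to 89753446, plus strand), the editing enzyme that marks double-stranded RNA as self, was slightly lower in the cKO at day 0 and higher at day 3. The day 0 values were 37.4, 38.7 and 40.4 CPM in the controls and 33.0, 35.6 and 34.2 CPM in the cKO, a log2 fold change of -0.18 ± 0.047 (SE), adjusted p = 0.00842. The day 3 values were 33.9, 42.5, 42.4 and 34.1 CPM in the controls and 86.0, 73.5, 82.3 and 47.5 CPM in the cKO, 0.92 ± 0.18 (SE), adjusted p = 0.00361. Replicates 1 to 3 of the cKO lay well above the controls, and replicate 4 lay just above the highest control. In cartilage Adar had 1, 1, 0 and 2 counts in the controls and 9, 10, 7 and 13 in the cKO, at least 3.71-fold higher against the floor of 3 counts (exact permutation test, 2-sided, p = 0.0286). The estimated counts were 11, 7, 5 and 14 in the controls and 24, 23, 21 and 30 in the cKO. The log2 fold change of Adar there was 1.68 ± 0.30 (SE), adjusted p = 0.00375. That is less than the bound, so the bound holds for the main cartilage counts only. Chrnb2, on the opposite strand, shares 1365 bases (16.8%) of the Adar exons; it was at 1.58 and 1.85 CPM at day 0 in control and cKO means and at 0.897 and 0.903 CPM at day 3.

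Trex1 (chromosome 9, 109057933 to 109059734, minus strand), the exonuclease that clears cytosolic DNA, was low in the cultures and higher in the cKO. At day 0 the controls held 1.99, 1.89 and 1.82 CPM and the cKO 2.79, 3.06 and 2.41 CPM, a log2 fold change of 0.53 ± 0.14 (SE), adjusted p = 0.00758. After BMP2 the controls held 4.57, 3.68, 4.40 and 2.57 CPM and the cKO 9.15, 8.43, 9.33 and 5.64 CPM, 1.10 ± 0.23 (SE), adjusted p = 0.00478. The groups did not overlap at either time, with replicate 4 the lowest of the day 3 cKO. In cartilage the estimated counts were 20, 33, 30 and 52 in the controls and 75, 69, 74 and 64 in the cKO, a log2 fold change of 1.35 ± 0.20 (SE), adjusted p = 7.33e-04, where 6.74% of 10872 genes were called. All of the exonic sequence of Trex1 (100%) also lies in exons of Atrip on the same strand, so the split of reads between them is uncertain. Atrip was at 13.1 and 13.9 CPM at day 0 (control and cKO means, adjusted p = 0.283) and at 9.58 and 11.0 CPM at day 3 (adjusted p = 0.116).

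Levels of different genes were compared per kilobase of exon, in the cultures only, since the cartilage libraries count 3′ ends. In day 0 controls Tbk1 (5.97 CPM per kilobase) and Mavs (5.47) led with overlapping ranges. Adar (4.78), Eif2ak2 (3.40), Ddx58 (2.32), Trex1 (1.66), Dhx58 (1.39), Tlr3 (0.270), Ifih1 (0.0856) and Zbp1 (0.00390) followed, with no overlap between neighbours. The kinase and the adaptor were thus above every receptor in untreated control cells. In day 3 cKO cultures Eif2ak2 (16.8) and Ddx58 (13.8) stood first and second. The first 7 members of that order, down to Mavs (6.62), overlapped with their neighbours. Ifih1 (3.04) and Tlr3 (2.32) overlapped with each other below them, and Zbp1 (0.814) was last in all 4 culture groups.

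Most sensors rose between day 0 and day 3 in both genotypes, a step at which time in culture, BMP2 and sequencing depth changed together and cannot be told apart. In control cultures 6 members rose and none fell, against 56.9% of 14909 genes called and 28.1% called higher, in 1 fit of all 14 cultures. Ifih1 rose by 2.39 ± 0.34 (SE), adjusted p = 6.97e-05 on the log2 scale. Tlr3 rose by 1.78 (adjusted p = 1.75e-06), Ddx58 by 1.31 (4.34e-05), Trex1 by 0.90 (0.00339), Eif2ak2 by 0.82 (5.45e-04) and Mavs by 0.46 (0.00129). Dhx58 (0.31, adjusted p = 0.541), Tbk1 (0.20, 0.057) and Adar (-0.12, 0.565) did not pass. Without day 3 cKO replicate 4, which shares the estimate of spread, Dhx58 passed with 0.31 (adjusted p = 0.0108) and Tbk1 with 0.20 (adjusted p = 0.0438). Zbp1 was at or under the floor in all control libraries of both days.

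In cKO cultures all members but Tbk1 were called higher at day 3, against 62.2% of genes called and 32.4% called higher. Zbp1 went from 1, 2 and 7 counts to 64, 49, 89 and 8; it entered this fit only through the day 3 cKO libraries, and with day 0 mostly at or under the floor no fold is given. Ifih1 rose by 3.19 (adjusted p = 2.93e-06), Dhx58 by 3.17 (4.17e-05), Tlr3 by 2.09 (3.40e-07) and Ddx58 by 1.98 (1.44e-06). Trex1 rose by 1.45 (7.63e-05), Eif2ak2 by 1.33 (1.00e-05), Adar by 0.96 (2.83e-04) and Mavs by 0.30 (0.0178). The exception was Tbk1, at 0.015 ± 0.083 (SE), adjusted p = 0.887. The Mavs call missed the threshold in cKO cultures fitted alone (adjusted p = 0.0799) and without day 0 cKO replicate 1 (0.0592) or 3 (0.0616), and without day 3 cKO replicate 4 its rise was 0.19 (adjusted p = 0.0224).

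**Figure D3:**
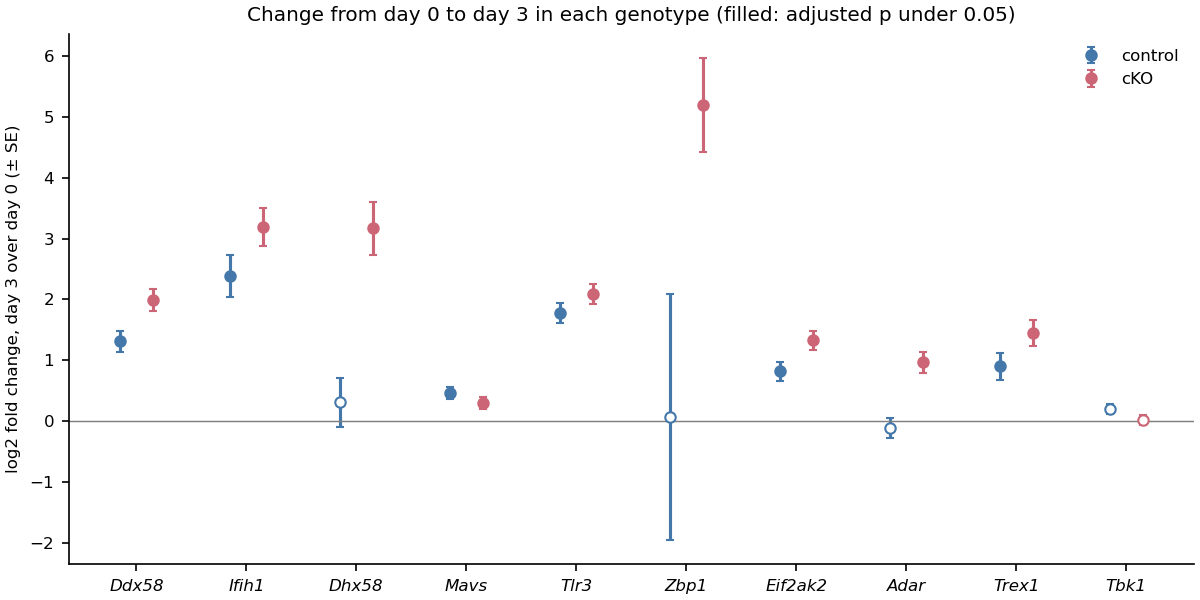
Log2 fold change of day 3 over day 0 with its standard error, for each sensor in control (blue) and cKO (red) cultures; filled points passed an adjusted p of 0.05. The red point lies above the blue one for 8 of the 10 genes; Mavs and Tbk1 have the lower red point, and the points of Zbp1, with control counts of 0 or 1 and day 0 cKO counts of 1 to 7, are fitted values and not measured folds.

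The difference between those changes was tested as the interaction of genotype and day, in which 16.8% of genes were called and 9.94% called higher. It passed for Dhx58, at 2.86 ± 0.57 (SE), adjusted p = 0.00525, and for Adar, at 1.08 ± 0.23 (SE), adjusted p = 0.00808. Both went from lower than control at day 0 to higher at day 3. Ddx58 (0.68, adjusted p = 0.0746), Eif2ak2 (0.51, 0.121), Ifih1 (0.80, 0.248), Trex1 (0.55, 0.24), Tlr3 (0.31, 0.382), Mavs (-0.17, 0.454) and Tbk1 (-0.19, 0.316) did not pass, nor did Zbp1 (adjusted p = 0.21), whose controls were at or under the floor. DESeq2 called 4 members, with Ddx58 (adjusted p = 0.0376) and Zbp1 (0.0399) beside Dhx58 and Adar, and the replicate block called 3, with Ddx58 (0.0473). Without day 3 cKO replicate 4, 27.3% of genes and 7 members were called, Ddx58 at 0.85 (adjusted p = 6.13e-05), Eif2ak2 at 0.66 (6.11e-04), Ifih1 at 0.99 (0.0452), Trex1 at 0.70 (0.0432) and Mavs at -0.27 (0.0392) joining Dhx58 and Adar. Tlr3 (0.411), Tbk1 (0.283) and Zbp1 (0.0581) did not pass there either.

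In cartilage the genotype difference of the 3 called members was also fitted in each sex. Ifih1 was higher by 3.02 in males (adjusted p = 0.00366) and 3.45 in females (adjusted p = 1.53e-04), in separate edgeR fits of 2 against 2 samples. Its cartilage controls held 3 to 6 counts, so it could be tested only because the cKO was high. Eif2ak2 was higher by 2.07 in males (adjusted p = 0.00256) and 2.08 in females (adjusted p = 7.12e-05). Ddx58 stood at 1.03 in males, which missed the threshold (adjusted p = 0.108), and at 1.09 in females (adjusted p = 0.0317). The interaction of genotype and sex was called in 0 of the 4 members tested by edgeR, with 0 of the 4 at an unadjusted p under 0.05, and in 0 by DESeq2, where 0.0114% of all genes were called by edgeR. The standard errors of that interaction were 0.42 for Eif2ak2 and 0.74 for Ifih1, so that differences between the sexes of that size could not be seen.

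The rest of the pathway was counted in 111 other genes in 7 lists, with some genes in more than 1 list, of which 92 were tested at each culture time and 62 in cartilage. At day 0, 48 were higher and 18 lower, at day 3, 54 higher and 6 lower, and in cartilage 19 higher and none lower, against the backgrounds given above. Part of these counts was fixed by the count filter: 4 of the higher genes at day 0, 7 at day 3 and 11 in cartilage had fewer than 10 counts in every control library and could be tested only because the cKO was high. Without them 44 of 88 genes were higher at day 0, 47 of 85 after BMP2, and in cartilage 8 of 51. These shares still hold genes with only some control libraries under 10 counts, such as Ifit1, Usp18, Irf7 and Rtp4 at day 0. Such genes also needed the cKO to be tested, so the shares remain partly fixed by the filter. Called higher in all 3 settings were 14, among them Bst2, Ddx60, Ifit1, Ifit3, Irf7, Isg15, Pnpt1, Rtp4, Trim25, Trim56, Usp18, Xaf1 and Zc3hav1. In cartilage Ddx60, Ifit1, Ifit3, Irf7, Isg15, Rtp4, Usp18 and Xaf1 were tested only because the cKO was high, so their cartilage calls were partly fixed by the filter. The 14 include Trim25, a ubiquitin ligase that activates RIG-I (log2 fold change 0.64, 1.10 and 1.23 at day 0, day 3 and in cartilage). Irf7, the factor that amplifies interferon production, stood at 2.32, 3.15 and 3.45, the last against 1 to 7 counts in cartilage controls. Pnpt1, a mitochondrial RNA-degrading enzyme, stood at 1.97, 2.21 and 4.19.

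Among the other RNA-sensing genes 11 were higher and 1 lower out of 12 tested before BMP2, 12 out of 13 after it and 4 out of 5 in cartilage. Of those, 3 at day 0, 4 at day 3 and 3 in cartilage had fewer than 10 counts in every control library and passed the filter only through the cKO. Other genes had only some control libraries under 10 counts and also needed the cKO to be tested. At day 0 these include Ifit1 (4 to 10 counts in controls), Oas1b (7 to 16) and Oas1c (4 to 13). The oligoadenylate synthetases, which switch on RNase L, were among the RNA-sensing genes: at day 3 Oasl2 had 3 to 6 counts in controls and 106 to 852 in the cKO, Oas3 had 3 to 5 and 40 to 237, and Oas1a had 0 to 3 and 12 to 206. DNA-sensing genes had 6 of 11 higher and 1 lower at day 0, 5 of 11 higher at day 3 and 0 of 6 called in cartilage. Of these, Aim2 at day 0 and Aim2 and Ifi203 at day 3 had fewer than 10 counts in every control library and passed the filter only through the cKO. Without them 5 of 10 were higher at day 0 and 3 of 9 at day 3. The day 0 share still holds Ifi203, which had 6 to 13 counts in controls and also needed the cKO to be tested. Signalling genes between the sensors and interferon had 14 of 24 higher and 3 lower at day 0, 13 of 24 higher at day 3 and 3 of 16 higher in cartilage. They include Mlkl, the executor of necroptosis downstream of ZBP1 (3.05 at day 0), and Irf5 (2.33 at day 0). In cartilage the signalling gene Irf7 passed the filter only through the cKO, and without it 2 of 15 were higher there. Of the interferon-stimulated genes 10 of 11 were higher at day 0, with 1 lower. At day 3, 12 of 12 were higher, where 2 had fewer than 10 counts in every control library and passed the filter only through the cKO. At day 0 Ifit1 (4 to 10 counts in controls), Usp18 (5 to 10), Irf7 (7 to 16) and Rtp4 (7 to 14) had control libraries under 10 counts. These genes also needed the cKO to be tested, so the day 0 count was partly fixed by the filter. In cartilage 12 were tested and called higher, but 10 of them had fewer than 10 counts in every control library, so that count says little about the list. Ifit1 had 0 to 3 counts in control and 40 to 116 in cKO cartilage, Ifi44 0 to 2 and 23 to 43, and Isg15 3 to 5 and 74 to 138. Bst2 had counts in both groups, 11 to 21 and 215 to 343, and a log2 fold change of 4.49.

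Genes that restrain or act beside these sensors had calls in both directions in the cultures. Over all genes tested, 33% were called higher and 31.6% lower at day 0, 25.5% higher at day 3 and 3.15% higher in cartilage. Of the genes that limit responses to self nucleic acid, 6 of 19 were higher and 5 lower at day 0, near the shares of all genes. At day 3, 8 of 18 were higher and 2 lower, and in cartilage 3 of 10 were higher. In cartilage Isg15 and Usp18 of these passed the filter only through the cKO, and without them 1 of 8 was higher. Nlrx1, a mitochondrial protein described as an inhibitor of MAVS, was lower at day 0 (-1.55) and day 3 (-0.97). The eIF2α branch, which holds the sister kinases of PKR and their downstream factors, had 1 of 8 higher and 5 lower at day 0, 1 higher and 4 lower at day 3, and 0 of 8 called in cartilage. Ddit3, a stress transcription factor, was lower by -1.71 and -1.47, and Ppp1r15a, a phosphatase subunit that reverses eIF2α phosphorylation, by -1.54 and -1.27. Eif2ak3, the kinase of that branch in the endoplasmic reticulum, was lower at day 0 (-0.77) and Atf4, its translational target, at day 3 (-1.06). Of the interferon ligands, receptors and their signalling factors, 5 of 12 were higher and 2 lower before BMP2, 9 of 12 higher after it and 2 of 10 higher in cartilage. The 7 listed interferon ligands, Ifnb1, Ifna2, Ifna4, Ifnk, Ifnl2, Ifnl3 and Ifng, had 0 or 1 count in each of the 14 culture libraries. Those ligands are named after their values were seen. In the main cartilage table Ifnk alone of them had a row, with 0 or 1 count.

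**Figure D4:**
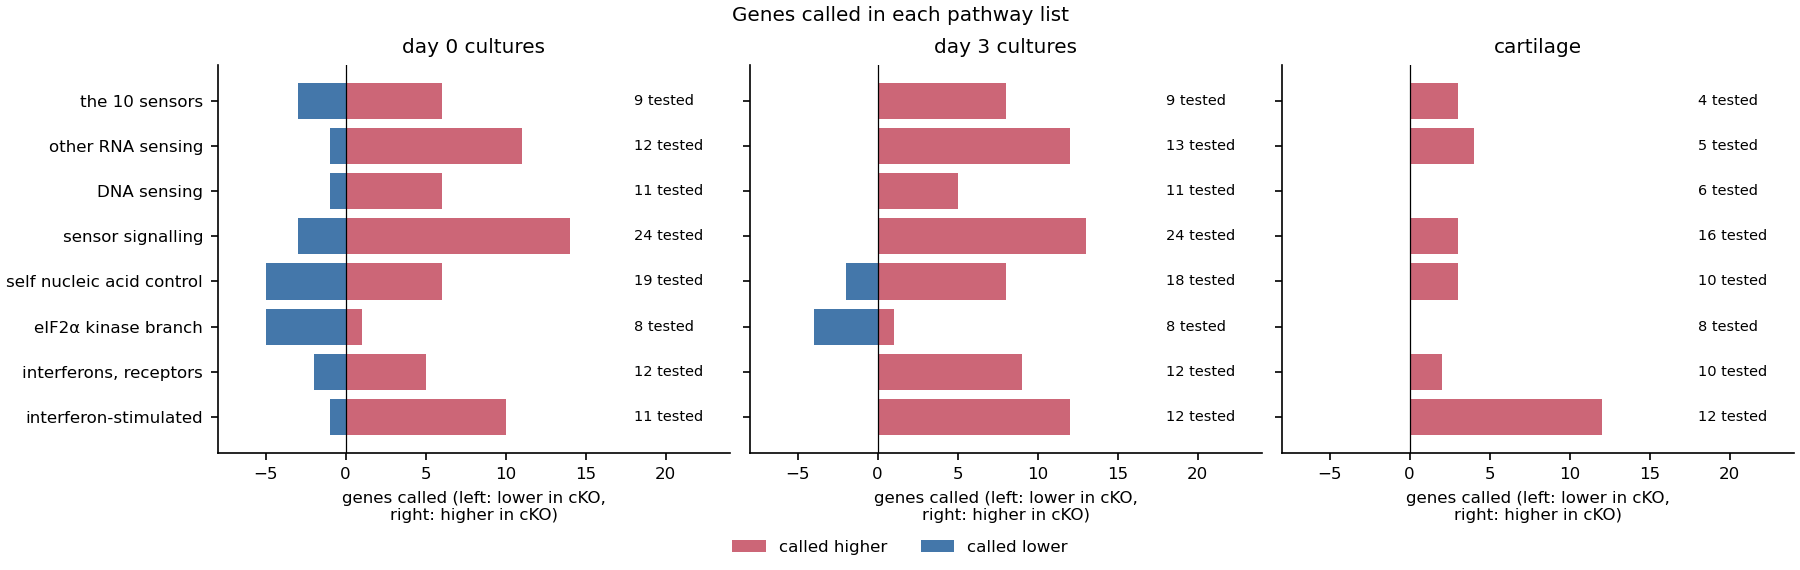
Number of genes called higher (red, right) and lower (blue, left) in the cKO in each pathway list and setting, with the number tested, which includes genes that passed the count filter only through the cKO (10 of the 12 interferon-stimulated genes in cartilage). Interferon-stimulated and other RNA-sensing genes are nearly all to the right at both culture times, and the eIF2α branch is mostly to the left.

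Over the 14 culture libraries, 8 members (all but Mavs and Tbk1) had pairwise Pearson r of 0.669 to 0.981 between their log2 CPM, in 28 pairs that share day, genotype and libraries. Mavs had r of -0.219 to 0.415 with the other 9, and Tbk1 -0.219 to 0.766. Among 11865 genes, those with the highest r to Ddx58 included H2-T22 (0.991) and Ifit1 (0.991). The nearest to Eif2ak2 were Trim25 (0.993), Zfp36l1 (0.993) and Dtx3l (0.992). For Ifih1 they were Pnrc1 (0.991), Samd9l (0.989) and Parp9 (0.988). Dhx58 was nearest to Rnf213 (0.976), Ankrd23 (0.975) and Fndc3a (0.968), and Tlr3 to Lgmn (0.987), Sh3pxd2a (0.987) and Hsd3b7 (0.987). Adar was nearest to Ryr1 (0.961), Lctl (0.958) and Kat2b (0.955), Trex1 to Shisa5 (0.973), Twist1 (0.973) and Ppil2 (0.971), and Tbk1 to Arrdc1 (0.970), Gm13285 (0.947) and Gm48417 (0.936).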

How the data were processed

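RNA was sequenced in 14 chondrocyte cultures and 8 cartilage samples of mice, grouped by the titles in the labels. The authors deposited gene-level estimated counts for the cultures, from directional total RNA libraries per the labels' protocols; the aligner and counter of these are not given in the sources used here. For cartilage the authors deposited whole-number counts (analysed as the main table) and a table of estimated counts (an alternative), from 3′ libraries with molecular identifiers per the labels. The submitters' processing notes name UMI-tools 1.1.1, Trim Galore 0.6.7, HISAT2 2.2.1, featureCounts 2.0.1, DESeq2 1.34.0 and GRCm38, without saying which made which table. Deposited pool names place every cartilage library in a pool. Estimated counts were rounded. Culture identifiers were paired with symbols for 34582 of 34866 genes, and positions come from the GENCODE annotation of GRCm38.

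Each comparison was fitted across all genes with edgeR 4.0.16 in R 4.3.3 (quasi-likelihood test, TMM scaling, filterByExpr with 10 counts per library and 15 in total, Benjamini-Hochberg adjustment, threshold 0.05), with sex as a covariate in cartilage and all 14 cultures in 1 fit for day changes and the interaction. CPM are counts over the TMM-scaled library size, per setting. Standard errors were taken from the test statistic. Members that failed the filter at day 3 or in cartilage, and Trex1 in the estimated counts, were compared by an exact permutation test of log2(CPM + 1), with pseudocount 1. The floor was 3 counts per library, which covers counting error only. The scripts were tested on simulated data. Named pathway genes were those with a call of 1 sign at day 0, at day 3 and in cartilage, and per comparison up to 4 rising and 4 falling with the largest change among genes with log2 CPM of at least 1 and groups that do not overlap; all members are named. The members and the lists were chosen with earlier results of these data known. Alternatives were RLE scaling, DESeq2 1.42.0, no filter, each library left out, a replicate block, other sets of samples and the second cartilage table. Genes under 10 counts in every control library were counted, after the data were seen, as tested only through the cKO. Genes with only some control libraries under 10 counts were not counted so. Values of some listed genes are not reported here.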

Additional observations from a re-analysis of the deposited data

Results flagged for a closer look

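In groups of 4 libraries, 3 single values lay far from the other 3 by Dixon's criterion; chance alone does so in about 1 in 20 groups, and 38 groups of members and libraries were checked. Ifih1 stood at 14.2 CPM in day 3 cKO replicate 4, below the other cKO libraries at 27.4 to 29.9 CPM (gap over range 0.835); that library also held fewer chondrocyte and muscle marker counts, and their part in the value was not tested. Zbp1 stood at 0.0702 CPM in day 3 control replicate 1 and at 1.501 CPM in cartilage control replicate 1, which are 1 and 2 counts beside 0 in the other 3 libraries of each group.

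The genotype effect differed between day 0 and day 3 for 2 members by the interaction test of edgeR. For Dhx58 the log2 difference was 2.86 (adjusted p = 0.00525) and for Adar 1.08 (adjusted p = 0.00808), and both were called without day 3 cKO replicate 4 as well.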

How the results depend on the processing

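Over 842 alternative values for single members, 802 kept their direction and side of the threshold, 18 kept the direction but lost the call, 15 gained one and 7 turned direction. RLE scaling left every count of called members as reported. Day 0 calls fell from 9 to 4 when all 14 cultures were fitted together; the cause was not tested. In cartilage, 3 calls became 5 with DESeq2, 6 with no filter (which let 9 members be tested) and 5 with the estimated counts (7 tested). Among the calls with estimated counts, Dhx58 had fewer than 10 counts in every control library and was tested only because the cKO was high. The interaction went from 2 calls to 4 with DESeq2. Leaving out each library gave 8 to 9 calls at day 0, 8 to 10 at day 3, 3 in every cartilage fit, 6 to 8 and 8 to 9 for the day changes in control and cKO cultures, and 2 to 7 for the interaction, with 7 only without day 3 cKO replicate 4. Directions turned only in values that passed no threshold: Zbp1 in the control day change (-0.38 without day 0 control replicate 3, -2.20 without day 3 control replicate 1, up to 0.46 over the libraries left out), Adar there (0.0041 with the replicate block), Tbk1 in the cKO day change (-0.023 and -0.036 without day 3 cKO replicate 1 and 3, up to 0.027) and Eif2ak2 by sex (-0.0078 with DESeq2, -0.027 with no filter). The replicate numbers share only a number: deviations of same-numbered samples correlated at -0.0634 to 0.14 at day 0, -0.145 to -0.064 at day 3 and -0.0819 to 0.265 in cartilage, and samples did not all correlate best with their own number. With the replicate block the members called were 8 at day 0, 8 at day 3, 3 in cartilage, 6 and 9 for the day changes and 3 for the interaction; over all genes the calls went from 10023 to 9724 at day 0, 6693 to 5391 at day 3 and 544 to 576 in cartilage. Depth limits the cartilage results: 3 counts stand for 1.59 to 2.73 CPM there, against 0.058 to 0.0719 at day 0.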
